A study of Mus musculus with 12 samples.

Results

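The mitochondrially encoded genes are the 37 genes whose symbol begins with mt- in the GENCODE M21 annotation of the mouse genome GRCm38. They were 37 of the 48526 genes in the deposited count table, and they divide into 13 messenger RNAs, 2 ribosomal RNAs and 22 transfer RNAs. All 37 lie on chromosome M, packed end to end. Of 36 neighbouring pairs, 35 overlap or lie within 5 bases of each other.

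Spinal cord cells labelled microglia were taken from Biozzi ABH mice in the acute phase, in remission or in the chronic phase of crEAE, the chronic-relapsing form of experimental autoimmune encephalomyelitis, and from control mice of the same strain. Each of the 4 groups held 3 mice, and each mouse gave 1 library. The gate took CD11b-positive cells with intermediate CD45 and no Ly-6C. Age, sex, the inducing agent and the days of sampling are not given in the labels, and a replicate number here names a library and pairs no mice.

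Total counts ran from 3992885 to 5712376 per library. The 6 most counted features, among them a ribosomal RNA gene (CT010467.1) and Lars2, held 62.4 to 64.1% of an acute library, 56.4 to 60.4% of a remission library, 56.4 to 62.7% of a chronic library and 48.3 to 56.2% of a control library. Marker genes were read as a check of the label. Their levels are CPM, counts normalised for library size with scaling factors from trimmed means of M values (TMM). Summed over 10 microglial genes such as P2ry12, Tmem119 and Sall1, they reached 2330 to 3590 CPM in acute and 7590 to 7820 in remission libraries. In chronic libraries they reached 7240 to 7460 CPM and in control libraries 9320 to 10400 CPM. The sum over 10 genes of monocytes and recruited macrophages, such as Ly6c2, Ccr2 and Arg1, was 1500 to 2210 CPM in acute, 7.27 to 18.5 in remission, 10.3 to 28.3 in chronic and 8.82 to 42.5 CPM in control libraries. The acute libraries therefore carried markers that the label does not name. All 10 of these genes were called higher there than in control libraries, beside 23.7% of all genes tested. In bulk counts, fewer cells of a type and less RNA per cell cannot be told apart, and neither can a change within microglia and a change in which cells were sorted.

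The mitochondrial genome is a small circle present in many copies per cell. It encodes core subunits of the respiratory chain and of ATP synthase, together with the ribosomal and transfer RNAs that translate them. Both strands are copied as long precursor RNAs, and the transfer RNAs that punctuate them are cut out to release the messengers and ribosomal RNAs. The protein factors that copy, process and translate this RNA are encoded in the nucleus and imported, as are most subunits of the same complexes.

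Sequence matters for these counts, because stretches of mitochondrial DNA have been copied into the nucleus. Reads here were 75 bases long. A long copy on chromosome 1, annotated as the pseudogenes Gm28439, Gm10222, Gm28438, Gm28437, Gm10925, Gm28661 and Gm29216 between 24611535 and 24616197 on the minus strand, carries most of the stretch from mt-Co1 to mt-Nd4. A pair of stretches shows how close the copy is. The first 100 bases of mt-Co3 on the plus strand of chrM:8607-8706 and the matching bases of Gm28437 on the minus strand of chr1:24613872-24613971 have no base that differs, so no read from within them can be assigned by sequence.
mt-Co3: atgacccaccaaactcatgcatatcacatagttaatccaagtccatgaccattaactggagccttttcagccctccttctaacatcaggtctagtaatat
Gm28437: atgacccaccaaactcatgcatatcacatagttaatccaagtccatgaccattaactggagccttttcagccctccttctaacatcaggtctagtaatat

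For mt-Nd3, the first 100 bases on the plus strand of chrM:9459-9558 and those of Gm28438 on the minus strand of chr1:24613020-24613119 differ at 1 base, set in capitals.
mt-Nd3: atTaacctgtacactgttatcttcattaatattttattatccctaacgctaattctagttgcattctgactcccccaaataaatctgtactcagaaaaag
Gm28438: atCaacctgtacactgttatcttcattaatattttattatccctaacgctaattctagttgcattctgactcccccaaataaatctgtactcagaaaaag

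Within the mitochondrial genome, some messengers share bases with each other. The last 43 bases of mt-Atp8 are also the first of mt-Atp6, on the plus strand of chrM:7927-7969, where capitals mark the start codon of mt-Atp6 and the stop codon of mt-Atp8. The 7 bases shared by mt-Nd4l and mt-Nd4 are in capitals within chrM:10147-10193, also on the plus strand. A read inside an overlap belongs to both genes, and how such reads were counted is not given in the sources used here.
mt-Atp8 and mt-Atp6: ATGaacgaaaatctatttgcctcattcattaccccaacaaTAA
mt-Nd4l and mt-Nd4: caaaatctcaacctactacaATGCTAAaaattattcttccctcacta

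The share of the library held by mitochondrial RNA was higher in every mouse with crEAE than in every control mouse. Nearly all of it was ribosomal RNA, which made up 93.8 to 95.5% of the mitochondrial counts across the 12 libraries. The ribosomal RNAs held 5.46, 4.90 and 5.20% of the total counts in acute mice, 3.61, 2.36 and 3.25% in remission, 4.11, 2.88 and 4.03% in chronic mice and 1.91, 1.83 and 2.16% in control mice. The acute group lay above all others, and each crEAE group lay above control without overlap, whereas chronic and remission mice overlapped. Means were 5.18 ± 0.279% in acute, 3.07 ± 0.642% in remission, 3.67 ± 0.691% in chronic and 1.97 ± 0.174% in control mice (SD, n = 3 each).

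The 13 messengers together took a far smaller share with the same order of groups. They held 0.281, 0.276 and 0.343% of the counts in acute mice, 0.209, 0.152 and 0.207% in remission, 0.250, 0.143 and 0.227% in chronic mice and 0.102, 0.0866 and 0.125% in control mice. Their mean share was 2.87 times control in the acute phase, 1.81 times in remission and 1.98 times in the chronic phase. Counting error was small beside the spread between mice. For control replicate 2, which had the lowest share, the exact 95% binomial interval ran from 0.0840 to 0.0892%. Such intervals cover counting error only, since the reads carried no molecular identifiers. No p-value was attached to these sums, and 3 mice against 3 could not go below 0.10 in an exact two-sided permutation test.

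Mitochondrial ribosomal RNA counts were 17.4 ± 2.15 times the messenger counts in acute, 16.2 ± 0.928 in remission, 18.1 ± 1.82 in chronic and 19.0 ± 1.92 times in control mice, and acute and chronic mice overlapped with control mice while remission mice lay just below them.

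**Figure D1:**
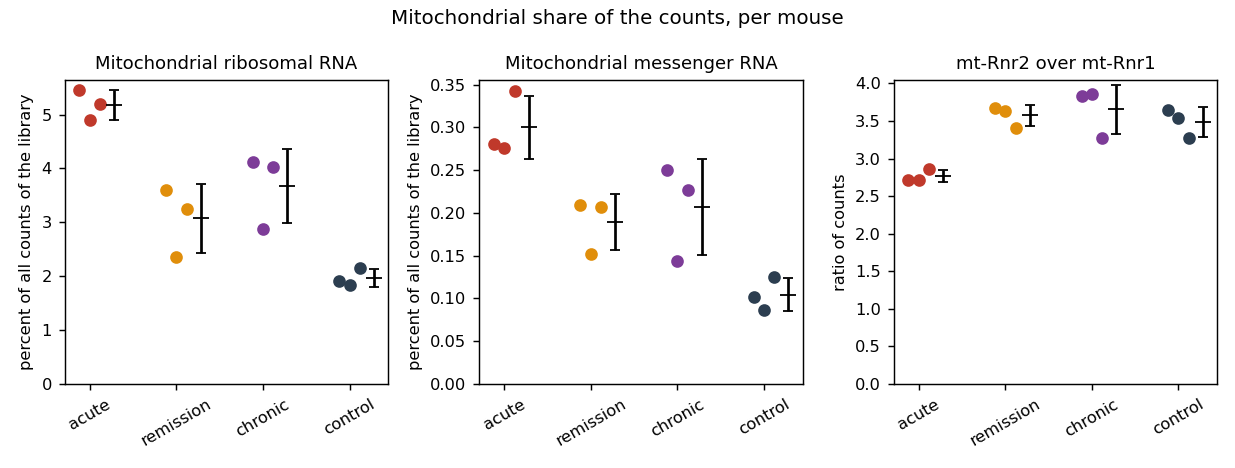
Share of total counts held by the mitochondrial ribosomal RNAs and by the 13 messengers, in percent, and the ratio of mt-Rnr2 to mt-Rnr1 counts. Each point is 1 mouse and the bar beside it is the mean ± SD (n = 3). Both shares are highest in the acute phase and lowest in control mice, and the ratio stands apart in the acute phase alone, at 2.72 to 2.86.

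Gene by gene, 15 of the 37 members passed the filter on low counts and were tested, namely the 13 messengers and both ribosomal RNAs, and none of the 22 transfer RNAs did. Of these, 14 had at least 10 counts in every control library. The filter scales its limit of 10 counts to the library total. mt-Atp8, with 12, 10 and 16 counts in control libraries, lay below that limit in control replicate 2, a library larger than the median. mt-Nd3 had 6 to 10 counts in control and 19 to 35 in the other libraries. Both genes passed through the groups where they were high, so their calls were partly set by the filter. Levels are CPM scaled by trimmed means of M values (TMM), and differences are log2 fold changes with their standard error (SE). The tests are edgeR's quasi-likelihood test with Benjamini-Hochberg adjustment across all 12545 genes that passed the filter, and a gene is called at an adjusted p under 0.05.

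In acute against control mice all 15 tested members were called higher, where 23.7% of all genes tested were called higher and 20% lower. In remission against control 13 of the 15 were called higher, where 6.06% of all genes were called higher and 3.25% lower. In chronic against control all 15 were called higher, where 9.57% of all genes were called higher and 5.17% lower. The median log2 fold change of the 13 messengers was 2.07 in acute, 1.49 in remission and 1.32 in the chronic phase, beside 0.02, 0.01 and -0.01 for all genes tested. These 3 comparisons share the control mice. The levels of all 15 members in each crEAE group lay above those of control without overlap, which was so for 30% of all genes in acute, 14.4% in remission and 16.5% in the chronic phase.

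The scaling bears on the size of these changes. With library totals alone, the median of all genes shifted by -0.56 on the log2 scale in acute against control, -0.25 in remission and -0.36 in the chronic phase. The median of the messengers was then 1.54, 1.24 and 0.97, and all 15 members were called higher in each comparison with control. The split of all calls in acute against control turned with it, with 2977 genes higher and 2510 lower under TMM and 1603 higher and 5427 lower with totals alone.

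**Figure D2:**
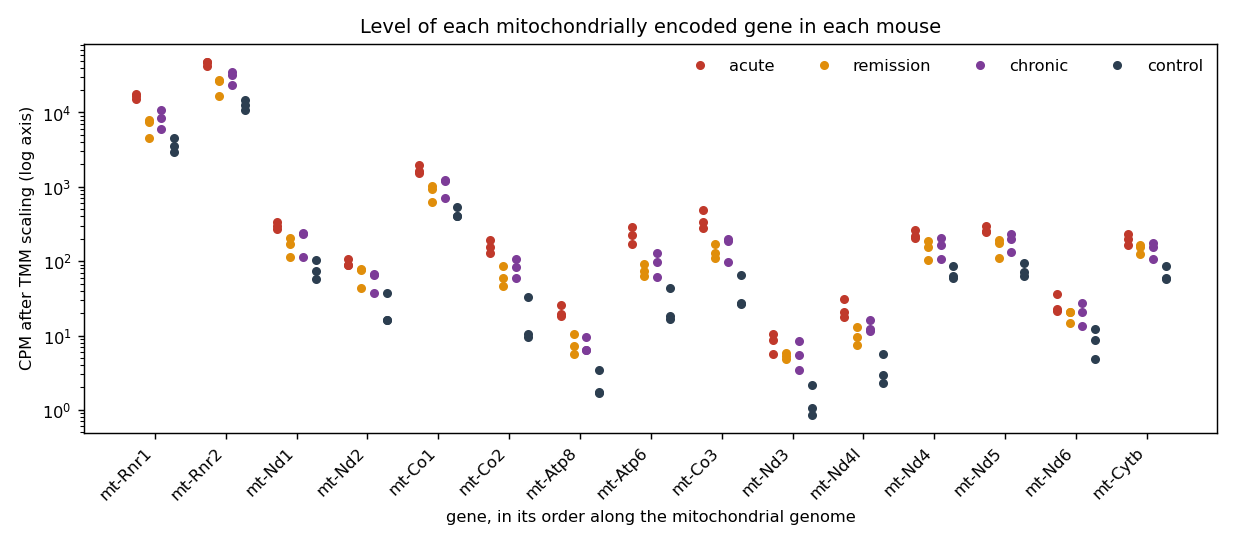
Level of each tested member in each mouse, in CPM after TMM scaling on a log axis, with genes in their order along the mitochondrial genome. Each point is 1 mouse, with the 4 groups side by side. For every gene the control mice lie lowest, mt-Rnr2 stands highest, at 10700 to 48310 CPM, and mt-Nd3 lowest, at 0.853 to 10.4 CPM.

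mt-Rnr2 (ENSMUSG00000064339, bases 1094 to 2675 of chromosome M), the ribosomal RNA of the large subunit of the mitochondrial ribosome, was the most abundant member. It reached 48310, 41870 and 47640 CPM in acute mice, 27450, 16670 and 26660 in remission, 32250, 23490 and 35470 in chronic mice and 10700, 12470 and 14740 CPM in control mice. Every crEAE mouse exceeded every control mouse, and acute mice exceeded the rest. The log2 fold change against control was 1.86 ± 0.21 (SE) in acute (adjusted p 3.72e-07), 0.90 ± 0.20 in remission (adjusted p 0.00528) and 1.27 ± 0.20 in chronic mice (adjusted p 0.000156).

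mt-Rnr1, the ribosomal RNA of the small subunit, lies just upstream of mt-Rnr2 on the same precursor. It stood at 17770, 15410 and 16670 CPM in acute mice, 7468, 4586 and 7824 in remission, 8416, 6090 and 10820 in chronic mice and 2932, 3527 and 4509 CPM in control mice. Its log2 fold change against control was 2.19 ± 0.23 in acute, 0.86 ± 0.22 in remission and 1.21 ± 0.23 in the chronic phase, with adjusted p values of 6.85e-07, 0.0200 and 0.00114. The fitted acute change of mt-Rnr1 was larger than that of mt-Rnr2, while in remission and the chronic phase the pair differed by less than the SE of either.

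That difference shows in the ratio of the pair, which needs no scaling between libraries. Counts of mt-Rnr2 were 2.72, 2.72 and 2.86 times those of mt-Rnr1 in acute mice, 3.68, 3.64 and 3.41 times in remission, 3.83, 3.86 and 3.28 times in chronic mice and 3.65, 3.54 and 3.27 times in control mice. The acute mice lay below all 9 other mice, and the other 3 groups overlapped. No 75-base stretch of either gene was shared with an annotated nuclear copy.

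Complex IV, cytochrome c oxidase, passes electrons to oxygen, and its catalytic core is formed by the products of mt-Co1, mt-Co2 and mt-Co3. mt-Co1 (ENSMUSG00000064351, bases 5328 to 6872) was the most abundant messenger, at 1632, 1538 and 1944 CPM in acute mice, 939.9, 619 and 1025 in remission, 1238, 718 and 1198 in chronic mice and 410.2, 406 and 538 CPM in control mice. Its log2 fold change against control was 1.92 ± 0.22 in acute (adjusted p 4.60e-06), 0.93 ± 0.22 in remission (adjusted p 0.0117) and 1.22 ± 0.22 in chronic mice (adjusted p 0.00114).

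The other complex IV messengers were higher by a wider margin in the acute phase. mt-Co3 had 333, 281 and 484 CPM in acute mice, 127, 109.6 and 169.5 in remission, 185, 98.9 and 198 in chronic mice and 26.7, 27.7 and 65.6 CPM in control mice. mt-Co2, which carries the site that receives electrons from cytochrome c, had 158, 129 and 196 CPM in acute mice, 58.9, 46.1 and 85.8 in remission, 83.1, 59.1 and 106 in chronic mice and 9.67, 10.3 and 33.2 CPM in control mice. In both genes control replicate 3 stood well above the other control mice and still below every crEAE mouse. The acute log2 fold change was 3.21 ± 0.44 for mt-Co3 (adjusted p 0.000304) and 3.22 ± 0.50 for mt-Co2 (adjusted p 0.000704). In remission it was 1.77 ± 0.43 for mt-Co3 (adjusted p 0.0321) and 1.88 ± 0.49 for mt-Co2 (adjusted p 0.0483), and in chronic mice 2.02 ± 0.43 and 2.26 ± 0.49 in the same order (adjusted p 0.0124 and 0.0148).

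Complex V, ATP synthase, has its proton channel partly formed by the product of mt-Atp6, while that of mt-Atp8 is a small membrane subunit. mt-Atp6 stood at 227, 168 and 285 CPM in acute mice, 74.0, 62.6 and 90.8 in remission, 98.8, 61.4 and 131 in chronic mice and 16.9, 18.6 and 43.4 CPM in control mice. mt-Atp8 stood at 19.2, 18.4 and 25.8 CPM in acute mice, 5.72, 7.27 and 10.6 in remission, 6.36, 6.30 and 9.44 in chronic mice and 1.71, 1.75 and 3.45 CPM in control mice. Both genes rose in the acute phase, by a log2 fold change of 3.13 ± 0.42 for mt-Atp6 (adjusted p 0.000261) and 3.23 ± 0.32 for mt-Atp8 (adjusted p 9.17e-08). In remission mt-Atp8 was called at 1.79 ± 0.34 (adjusted p 0.00128), and mt-Atp6 missed the threshold at 1.55 ± 0.42 (adjusted p 0.0508). In chronic mice both were called, at 1.90 ± 0.42 for mt-Atp6 (adjusted p 0.0143) and 1.70 ± 0.34 for mt-Atp8 (adjusted p 0.001496).

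Complex III passes electrons from ubiquinol to cytochrome c, and mt-Cytb, its cytochrome b, is the one mitochondrially encoded subunit. It had 166, 197 and 229 CPM in acute mice, 156, 123.97 and 164 in remission, 153, 107 and 177 in chronic mice and 59.7, 56.8 and 85.9 CPM in control mice. Its acute log2 fold change, 1.55 ± 0.20 (adjusted p 9.23e-06), was the smallest of the 15 members, and it was 1.14 ± 0.20 in remission (adjusted p 0.00112) and 1.11 ± 0.20 in chronic mice (adjusted p 0.000901). Chronic mice overlapped with acute mice in this gene, and all remission mice lay below all acute mice.

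Complex I, NADH dehydrogenase, starts the chain by taking electrons from NADH, and 7 members encode subunits of its membrane arm. mt-Nd5, a proton-pumping subunit, had 251, 246 and 296 CPM in acute mice, 191, 111 and 175 in remission, 197, 134 and 233 in chronic mice and 63.6, 70.6 and 94.7 CPM in control mice. mt-Nd1, which borders the quinone site, had 272, 296 and 334 CPM in acute mice, 207, 113 and 173 in remission, 239.9, 115 and 232 in chronic mice and 58.2, 73.8 and 104 CPM in control mice. The mean level of both in remission lay between the acute and the control mean. Their acute log2 fold changes were 1.80 ± 0.23 for mt-Nd5 (adjusted p 2.99e-05) and 1.94 ± 0.33 for mt-Nd1 (adjusted p 0.000816). In remission mt-Nd5 was called at 1.06 ± 0.23 (adjusted p 0.00946), and mt-Nd1 was not, at 1.07 ± 0.32 (adjusted p 0.0756). In chronic mice both were called, at 1.304 ± 0.23 for mt-Nd5 (adjusted p 0.00160) and 1.32 ± 0.33 for mt-Nd1 (adjusted p 0.0221).

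mt-Nd2 and mt-Nd4 encode further pumping subunits. mt-Nd4 ranged from 205 to 264 CPM in acute, 104.8 to 185 in remission, 109 to 205 in chronic and 59.3 to 84.8 CPM in control mice, and mt-Nd2 from 89.5 to 108 CPM in acute, 43.2 to 79.6 in remission, 37.5 to 67.1 in chronic and 15.9 to 37.1 CPM in control mice. Their log2 fold changes against control were 1.73 ± 0.25 for mt-Nd4 and 2.07 ± 0.38 for mt-Nd2 in acute, 1.09 ± 0.25 and 1.54 ± 0.38 in remission and 1.20 ± 0.25 and 1.32 ± 0.38 in chronic mice, each called. For mt-Nd2 in chronic mice the adjusted p was 0.0438. Over the 22 settings run, counting those with 1 library left out, mt-Nd2 was not called in 12 in chronic mice and in 6 in remission.

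The small subunit genes mt-Nd3 and mt-Nd4l were far less abundant. mt-Nd4l had 20.5, 17.6 and 31.4 CPM in acute mice, 7.57, 9.57 and 13.02 in remission, 11.3, 12.1 and 16.3 in chronic mice and 2.99, 2.28 and 5.61 CPM in control mice. mt-Nd3 had 5.71, 8.79 and 10.4 CPM in acute mice, 5.91, 4.78 and 5.31 in remission, 5.45, 3.42 and 8.42 in chronic mice and 0.853, 1.05 and 2.16 CPM in control mice. The acute log2 fold change was 2.70 ± 0.32 for mt-Nd4l (adjusted p 9.65e-07) and 2.65 ± 0.43 for mt-Nd3 (adjusted p 4.11e-05). In mt-Nd3 the acute, remission and chronic mice overlapped.

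mt-Nd6 is the one messenger coded on the minus strand, and its last 14 bases overlap the end of mt-Nd5 on the other strand. It had 21.3, 22.9 and 35.9 CPM in acute mice, 20.5, 14.7 and 20.7 in remission, 20.7, 13.50 and 27.8 in chronic mice and 4.84, 8.76 and 12.1 CPM in control mice. Its log2 fold change was 1.67 ± 0.33 in acute (adjusted p 0.000722), 1.15 ± 0.33 in remission (adjusted p 0.0394) and 1.29 ± 0.33 in chronic mice (adjusted p 0.0147). The library kit keeps no strand, so RNA of mt-Nd6 and any RNA copied from the opposite strand at that place cannot be told apart.

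Per length of gene the order of the members differed between groups. In control mice mt-Co1 led the messengers at 292 ± 48.6 CPM per kilobase, followed by mt-Nd1 at 82.3 ± 24.6, mt-Cytb at 59.0 ± 14.0 and mt-Co3 at 51.0 ± 28.3 (SD, n = 3). After mt-Co1, the distance between neighbours in that order was within the larger SD of the pair, and that of mt-Nd1 from mt-Cytb exceeded the SD of mt-Cytb. In acute mice mt-Co1 led at 1104 ± 138 CPM per kilobase, and mt-Co3 at 467 ± 134 and mt-Atp6 at 333 ± 85.5 stood next, then mt-Nd1 at 314 ± 32.5 and mt-Co2 at 235 ± 48.7. Both ribosomal RNAs exceeded every messenger, with mt-Rnr2 at 29040 ± 2236 CPM per kilobase in acute and 7990 ± 1280 in control mice.

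In the calls of remission against control, single mice decided much of the count. It was 6 of 15 without control replicate 1 or control replicate 2, 8 without remission replicate 1 or remission replicate 3, and 15 without control replicate 3. mt-Cytb, mt-Nd4l, mt-Nd5 and mt-Rnr2 were called in remission whichever single library of the 12 was left out. So were mt-Atp8 and mt-Nd3, but the filter they passed through their high groups was set on all 12 libraries and not redone. In chronic against control the count ranged from 10, without control replicate 2, to 15. In acute against control it was 15 in each case.

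Within groups the members tended to rank the mice alike. Control replicate 3 had the highest level of its group in 15 of 15 members, chronic replicate 2 the lowest in 14 and remission replicate 2 the lowest in 13. The median ratio of the highest to the lowest mouse of a group was 1.38 in acute, 1.71 in remission, 1.79 in chronic and 2.02 in control mice.

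Against the acute phase, levels were lower later in the disease, in part. In remission 9 of the 15 members were called lower than in acute mice, where 19.4% of all genes were. These were mt-Rnr1 (log2 fold change -1.33 ± 0.23, adjusted p 0.000186), mt-Rnr2 (-0.96 ± 0.20, adjusted p 0.000832), mt-Co1, mt-Co2, mt-Co3, mt-Atp6, mt-Atp8, mt-Nd4l and mt-Nd5. Of those, mt-Atp6 fell most, by 1.58 ± 0.39 (adjusted p 0.0116). By levels, 14 of the 15 members lay below the acute mice in all remission mice, mt-Nd3 being the exception, where 24.9% of all genes did. The count of calls was 6 without acute replicate 1, acute replicate 3 or remission replicate 2, and 6 to 11 over all libraries left out in turn.

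In the chronic phase 6 of the 15 were called lower than in acute mice, where 15.5% of all genes were, and 12 of 15 lay lower without overlap, where 21.4% of all genes did. Called were mt-Atp8 (-1.53 ± 0.29, adjusted p 0.000391), mt-Rnr1 (-0.98 ± 0.22, adjusted p 0.00332), mt-Atp6 (-1.23 ± 0.39, adjusted p 0.0417), mt-Nd4l (-0.81 ± 0.28, adjusted p 0.0361), mt-Co1 (-0.70 ± 0.22, adjusted p 0.0245) and mt-Rnr2 (-0.60 ± 0.20, adjusted p 0.0305). Without acute replicate 1, acute replicate 3 or chronic replicate 2 the call held for mt-Atp8 and mt-Rnr1 and for no other member, and without control replicate 3 the count was 9. mt-Cytb was called in neither comparison with acute mice, at -0.42 ± 0.19 in remission (adjusted p 0.103) and -0.44 ± 0.19 in the chronic phase (adjusted p 0.102).

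Chronic and remission mice could not be separated in these genes. By edgeR's quasi-likelihood test 0 of 15 members were called, where 1.20% of all genes were. By the same test 0 had an unadjusted p under 0.05, where 15.7% of all genes did. DESeq2 and limma-voom also called 0 members, and 385 and 65 of all 12545 genes in that order. With so few genes called, 0 of 15 does not set the members apart from other genes. The nearest was mt-Rnr2, at a log2 fold change of 0.37 ± 0.20 (unadjusted p 0.0822), and all 15 members overlapped between the groups, where 9.42% of all genes lay higher and 8.42% lower without overlap. A p that misses the threshold does not show that the levels were equal. In the test for any difference over the 4 groups 15 of 15 members were called, where 44% of all genes were.

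**Figure D3:**
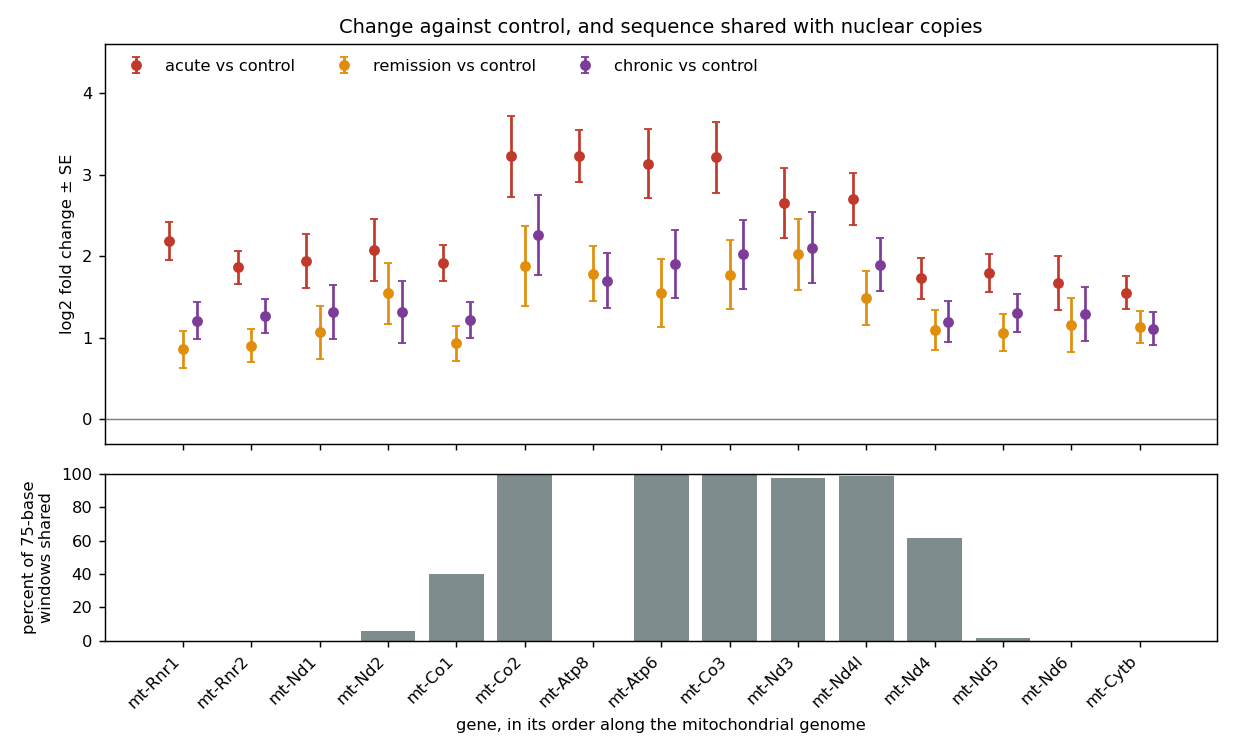
Log2 fold change against control ± SE of each tested member in acute, remission and chronic mice (upper axis), and the percent of its 75-base windows found unchanged in an annotated nuclear pseudogene (lower axis). Genes stand in their order along the mitochondrial genome. Acute changes from mt-Co2 to mt-Nd4l lie between 2.65 and 3.23 and those of the other 7 messengers between 1.55 and 2.07.

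The size of the acute change followed position along the genome. The 6 messengers that lie side by side from mt-Co2 to mt-Nd4l had acute log2 fold changes of 2.65 to 3.23, and the 7 others had 1.55 to 2.07. In remission the ranges were 1.49 to 2.02 and 0.93 to 1.54, and in chronic mice 1.70 to 2.26 and 1.11 to 1.32. This grouping was made after the values were seen and is given as a description without a test.

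The composition of the messenger pool, in which each gene is a percent of the counts of all 13, showed this pattern in part. It is drawn from the same counts. mt-Co3 held 9.79, 8.71 and 11.4% of the pool in acute mice, 6.27, 8.01 and 7.73% in remission, 7.49, 6.71 and 7.60% in chronic mice and 3.66, 3.66 and 5.91% in control mice. mt-Atp6 held 6.68, 5.22 and 6.72% in acute mice and 2.32, 2.45 and 3.91% in control mice. mt-Co2 held 4.63, 4.002 and 4.61% in acute mice and 1.32, 1.36 and 2.99% in control mice. Acute mice lay above control mice without overlap in all 3 of these genes, and for mt-Co3 remission and chronic mice did as well. mt-Atp8 and mt-Nd4l also lay above control in acute mice. mt-Nd3 overlapped there, at 0.168, 0.272 and 0.245% in acute against 0.117, 0.139 and 0.194% in control mice. In remission mt-Co2, mt-Atp6, mt-Atp8 and mt-Nd4l overlapped with control mice, and mt-Nd3 did not.

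Other messengers held less of the pool in the acute phase. mt-Co1 took 48.0, 47.6 and 45.8% in acute mice, 46.4, 45.2 and 46.7% in remission, 50.2, 48.7 and 45.9% in chronic mice and 56.1, 53.6 and 48.5% in control mice. mt-Cytb took 5.46 ± 0.606% in acute, 8.07 ± 0.864% in remission, 6.75 ± 0.513% in chronic and 7.80 ± 0.346% in control mice. mt-Nd4 and mt-Nd5 were also lower in acute than in control mice without overlap, at 6.32 ± 0.341% and 7.32 ± 0.322% against 8.05 ± 0.385% and 8.85 ± 0.417%. Being parts of 1 pool, these percentages cannot move independently.

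**Figure D4:**
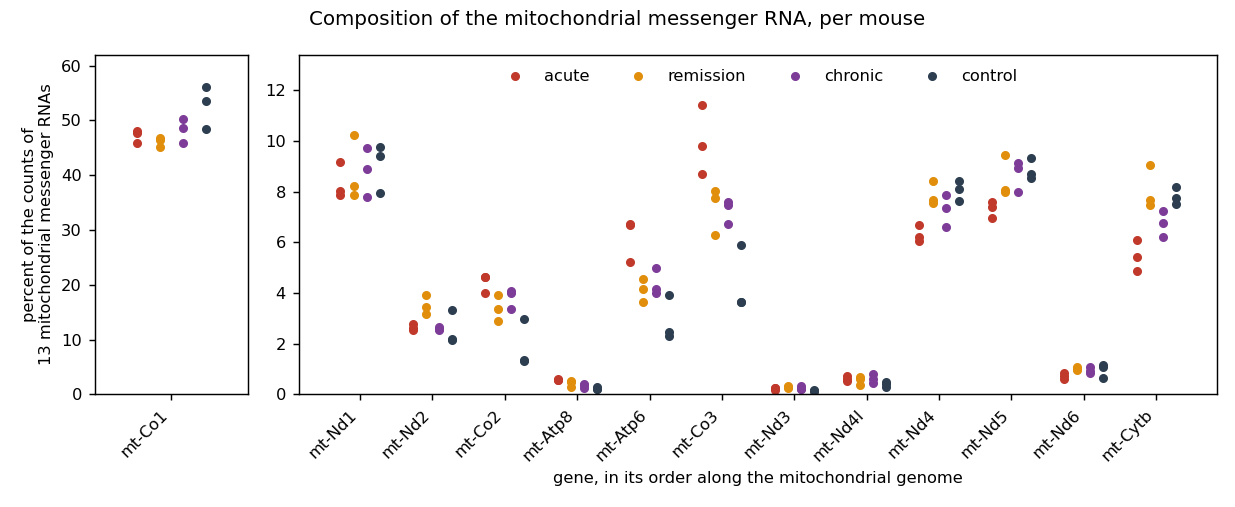
Each messenger as a percent of the counts of all 13, per mouse, with mt-Co1 on its own axis and the others in their order along the genome. Points are single mice of the 4 groups. mt-Co3, mt-Atp6 and mt-Co2 take more of the pool in acute than in control mice, and mt-Co1 and mt-Cytb take less.

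Nuclear copies cover much of the same stretch. Of the windows of 75 bases along each gene, 99.5% in mt-Co2, 99.5% in mt-Atp6, 99.9% in mt-Co3, 97.8% in mt-Nd3 and 98.7% in mt-Nd4l were found unchanged in an annotated nuclear transcript. Those 5 genes had acute log2 fold changes of 2.65 to 3.22. mt-Atp8 had no shared window and changed by 3.23, whereas mt-Nd4, with 61.5% shared, changed by 1.73 and mt-Co1, with 39.8% shared, by 1.92. mt-Nd2 shared 5.71% and mt-Nd5 1.66%, and mt-Nd1, mt-Nd6, mt-Cytb and both ribosomal RNAs shared none. The nuclear position opposite mt-Atp8 falls in a gap of 233 bases between Gm10925 and Gm28661 that holds no annotated pseudogene, and its sequence was not examined here.

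Along their whole annotated length Gm28661, Gm10925, Gm28437, Gm10222 and Gm28439 were identical to the matching parts of mt-Co2, mt-Atp6, mt-Co3, mt-Nd4l and mt-Nd4 over 681, 678, 783, 294 and 876 bases in that order. The copies took few counts. All the nuclear pseudogenes that share a window with a member held 47 to 69 counts per library in acute, 36 to 78 in remission, 43 to 82 in chronic and 20 to 39 in control libraries. How the deposited counting treated reads that match more than 1 place is not given in the sources used here, and the part of such reads in the larger changes was not tested.

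The transfer RNAs were barely seen. Their 22 genes together had 29, 34 and 18 counts in acute libraries, 27, 7 and 10 in remission, 15, 16 and 20 in chronic libraries and 8, 10 and 9 in control libraries, 203 in all. Acute libraries lay above control libraries without overlap, at 18 to 34 against 8 to 10 counts, and so did chronic libraries, while remission libraries overlapped. Of the 22 genes, 21 are shorter than the reads, at 59 to 71 bases, and a read can then cover them only together with a neighbour. mt-Ti, mt-Tg, mt-Tr and mt-Ts2 had 0 counts in all 12 libraries. In a single library, 0 counts allows a level of up to 0.525 to 0.751 CPM, the value of 3 counts of the total.

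The transfer RNAs with most counts were mt-Tp, which carries proline, with 20 counts over the acute libraries, 14 in remission, 14 in chronic and 9 in control libraries, mt-Ts1, one of the serine carriers, with 11, 6, 8 and 0 counts in the same order of groups, and mt-Tl1, one of the leucine carriers, with 12, 4, 7 and 1. mt-Tl1 is the longest, at 75 bases, and mt-Ts2, the other serine carrier, the shortest, at 59. The gene sequences of the most counted and of the shortest are shown, each on its own strand, mt-Tp on the minus strand of chrM:15356-15422, mt-Ts1 on the minus strand of chrM:6870-6938, mt-Tl1 on the plus strand of chrM:2676-2750 and mt-Ts2 on the plus strand of chrM:11613-11671.
mt-Tp: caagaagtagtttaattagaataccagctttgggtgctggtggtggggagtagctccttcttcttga
mt-Ts1: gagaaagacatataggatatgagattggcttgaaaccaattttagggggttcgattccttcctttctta
mt-Tl1: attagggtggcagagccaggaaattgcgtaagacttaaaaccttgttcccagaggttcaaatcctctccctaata
mt-Ts2: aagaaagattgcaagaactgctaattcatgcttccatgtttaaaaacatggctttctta

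Nuclear genes that keep and copy the mitochondrial genome were not called higher. Of 22 tested genes for maintenance and transcription of mitochondrial DNA, 0 were called higher and 7 lower in acute than in control mice (median log2 fold change -0.51), where 23.7% of all genes were higher and 20% lower. With library totals alone 17 of the 22 were lower, as were 5427 of all 12545 genes. Tfam, which packages mitochondrial DNA and opens its promoters, stood at 9.41 ± 1.96 CPM in acute, 7.46 ± 1.499 in remission, 7.49 ± 1.18 in chronic and 8.27 ± 0.714 CPM in control mice and was not called in any comparison with control (adjusted p 0.570, 0.837 and 0.782). Polrmt, the mitochondrial RNA polymerase, was lower in acute mice, at 12.5 ± 0.665 against 19.2 ± 3.26 CPM (log2 fold change -0.63 ± 0.21, adjusted p 0.0196). Mgme1, a nuclease of mitochondrial DNA, fell to 2.71 ± 1.31 CPM in acute mice, against 9.98 ± 1.18 CPM in control mice (-1.87 ± 0.36, adjusted p 0.000292), and Dguok, which makes nucleotides for mitochondrial DNA, to 8.77 ± 1.96 against 16.1 ± 0.865 CPM (-0.87 ± 0.21, adjusted p 0.00238). In remission and in chronic mice 0 of the 22 were called against control.

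Of 34 tested genes for processing and stability of mitochondrial RNA, 4 were higher and 1 lower in acute than in control mice (median -0.03), both below the 23.7% higher and 20% lower of all genes. Lrpprc, which stabilises mitochondrial messengers, stood at 56.5 ± 2.13 CPM in acute, 69.5 ± 7.10 in remission, 68.8 ± 12.2 in chronic and 58.8 ± 2.16 CPM in control mice and was not called (adjusted p 0.764, 0.316 and 0.327). Grsf1, an RNA-binding protein of mitochondrial RNA granules, was higher in acute mice (log2 fold change 0.95 ± 0.19, adjusted p 0.000345), as were Rexo2, which degrades short RNAs (1.303 ± 0.36, adjusted p 0.00557), and Pnpt1, the mitochondrial polynucleotide phosphorylase (0.59 ± 0.23, adjusted p 0.0435). With library totals alone 0 of the 34 were higher and 12 lower, where 1603 of all 12545 genes were higher and 5427 lower.

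Lists of the translation machinery are read against the same shares of all genes, 23.7% higher and 20% lower. Of 67 mitochondrial ribosomal proteins 7 were higher and 2 lower in acute than in control mice (median 0.09), with Mrps9 at 21.8 ± 1.74 against 10.7 ± 0.542 CPM and Mrpl24 at 5.95 ± 1.32 against 11.2 ± 1.18 CPM. Of 16 translation factors 2 were higher and 4 lower (median -0.03). Among these, Gfm2, an elongation factor G used in ribosome recycling, fell to 159 ± 25.5 CPM in acute mice, against 406 ± 29.0 CPM in control mice (-1.35 ± 0.16, adjusted p 1.43e-06). Of 37 assembly factors of the respiratory complexes 2 were higher and 3 lower (median -0.16), and Coa5, of complex IV, was at 98.2 ± 12.04 against 34.8 ± 2.76 CPM. With totals alone no ribosomal protein or translation factor was called higher, and 17 and 8 of them were lower. Under that scaling 1603 of all 12545 genes were higher and 5427 lower.

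Part of the nuclear subunits of the complexes were called higher in the acute phase, where 23.7% of all genes were. Called higher in acute than in control mice were 15 of 31 for complex I (1 lower), 3 of 4 for complex II, 7 of 9 for complex III, 9 of 12 for complex IV and 8 of 15 for complex V, with medians of 0.75, 1.01, 1.43, 1.51 and 0.89. With library totals alone the numbers called higher were 4, 2, 4, 7 and 5 in the same order, with 2 lower in complex I and 1 in complex V. Under that scaling 1603 of all 12545 genes were higher, so the count for complex I lay near that of all genes. Cox8a, a small subunit of complex IV, stood at 16.3 ± 3.48 CPM in acute, 6.96 ± 1.22 in remission, 10.9 ± 2.96 in chronic and 3.15 ± 1.59 CPM in control mice and was called against control in all 3 phases (adjusted p 5.93e-06, 0.0320 and 0.000649). Atp5b, the catalytic subunit of ATP synthase, stood at 180 ± 22.2, 81.5 ± 11.8, 123 ± 32.6 and 74.3 ± 16.3 CPM in acute, remission, chronic and control mice and was called in the acute and chronic phases (adjusted p 2.94e-05 and 0.0137). Complex II has no mitochondrially encoded subunit, and its Sdhd was at 28.6 ± 1.82 CPM in acute and 9.95 ± 0.528 CPM in control mice.

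In remission, of all 71 nuclear subunits tested 1 was called higher than in control, in complex IV, and 0 lower, where 6.06% of all genes were higher and 3.25% lower. In the chronic phase 9 nuclear subunits were called higher, 2 in complex I, 1 in complex II, 3 in complex IV and 3 in complex V, where 9.57% of all genes were higher. With library totals alone 0 nuclear subunits were higher and 2 lower in remission, and 2 were higher and 1 lower in the chronic phase. Of all 12545 genes, 506 were higher and 1045 lower in remission under that scaling, and 703 higher and 2538 lower in the chronic phase. A difference between nuclear subunits and mitochondrially encoded genes was not tested.

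Summed levels give the balance between the genomes. For complexes I, III, IV and V together, the 13 mitochondrial messengers summed to 2.83, 2.69 and 3.77 times the CPM of the 67 nuclear subunits in acute mice, 2.76, 2.20 and 3.61 times in remission, 3.10, 1.93 and 2.68 times in chronic mice and 1.27, 1.16 and 1.68 times in control mice. The 3 crEAE groups overlapped with each other, and each lay above control without overlap. Within complex IV the ratio was 15.0, 12.3 and 16.9 in acute mice, 14.1, 13.1 and 18.9 in remission, 17.0, 11.2 and 11.7 in chronic mice and 10.5, 7.56 and 11.7 in control mice, so that chronic mice overlapped with control mice there. Within complexes I, III and V each crEAE group lay above control without overlap. The nuclear sum was 1204, 1202 and 1124 CPM in acute mice, 735, 621 and 608 in remission, 797, 765 and 975 in chronic mice and 578, 652 and 660 CPM in control mice, so that remission overlapped with control. The mitochondrial sum was 3624 ± 542 CPM in acute, 1863 ± 436 in remission, 2184 ± 619 in chronic and 866 ± 212 CPM in control mice.

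Other nuclear lists touch the amount of mitochondria. Of 17 genes used as proxies of mitochondrial mass, such as citrate synthase, 8 were called higher and 0 lower in acute than in control mice (median 0.48), 0 in remission and 1 in the chronic phase. Of all genes 23.7% were higher and 20% lower in acute mice, and 6.06% were higher in remission and 9.57% in the chronic phase. Cs, which encodes citrate synthase, stood at 60.3 ± 3.12 CPM in acute, 28.3 ± 4.10 in remission, 40.2 ± 14.0 in chronic and 25.7 ± 5.35 CPM in control mice and was called in the acute phase (adjusted p 6.28e-05) and the chronic phase (adjusted p 0.0392). Under library totals alone 2 of the 17 were higher and 2 lower in acute mice, where 1603 of all 12545 genes were higher and 5427 lower. Of 10 regulators of mitochondrial biogenesis 1 was higher and 2 were lower in the acute phase, beside the 23.7% higher and 20% lower of all genes. Ppargc1b, a coactivator of that programme, was called higher in all 3 phases, though not in remission with totals alone, at 9.14 ± 0.825 CPM in acute, 5.88 ± 0.633 in remission, 6.20 ± 1.54 in chronic and 2.44 ± 0.634 CPM in control mice (adjusted p 5.55e-05, 0.0133 and 0.00598). Myc fell to 7.72 ± 1.54 CPM in acute mice, against 16.1 ± 3.59 CPM in control mice (adjusted p 0.00137).

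**Figure D5:**
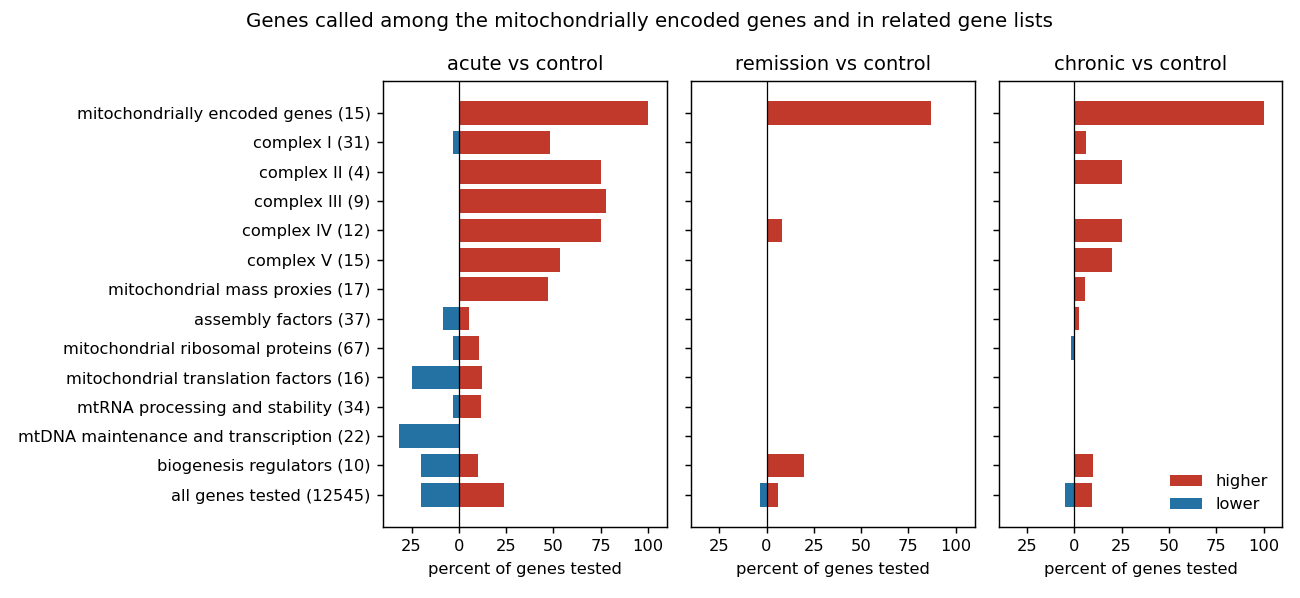
Percent of the genes tested in each list that were called higher (to the right, red) or lower (to the left, blue) than in control mice, with the number tested in brackets and all genes in the bottom row. Complexes I to V are nuclear subunits. In remission 13 of the 15 mitochondrially encoded genes and 1 of the 71 nuclear subunits are called higher, beside 6.06% of all genes.

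Markers of other cells moved with the acute rise of the mitochondrial genes. Beside the monocyte sum, that over 9 T and NK cell genes was 49.5 to 82.1 CPM in the acute against 0 to 0.701 CPM in the control group, and that over 8 oligodendrocyte genes 451 to 593 against 88.0 to 112 CPM. The neutrophil sum overlapped, at 240 to 445 CPM in the acute and 348 to 457 CPM in the control group. Of its 9 genes 7, S100a8, S100a9 and Ly6g among them, were at 0 in all control libraries, and 0 were at 0 in the acute group. Of 7 neutrophil genes tested, 6 were called higher and 1 lower in acute than in control mice, where 23.7% of all genes were higher and 20% lower. The part of these markers in the acute levels was not tested. In remission and in the chronic phase 0 of 10 monocyte genes were called higher than in control mice and the monocyte sums did not exceed the control range. Called lower were 0 in remission and 1 in the chronic phase, where 3.25 and 5.17% of all genes were. The median log2 fold change of the 10 was -0.05 in remission and 0.53 in the chronic phase. F13a1 was at 0 in remission, Ly6c2 and Chil3 were at 0 in control libraries, and 0 of the 10 were at 0 in the chronic phase. Over all genes 6.06% were called higher in remission and 9.57% in the chronic phase. T and NK cell genes summed to 0.531 to 3.32 CPM in remission and 0.227 to 0.765 CPM in chronic libraries, and neutrophil genes to 427 to 483 and 297 to 358 CPM. Of the 7 neutrophil genes tested 0 were called higher than in control mice in either phase. Their median log2 fold change was 5.38 in remission and 2.70 in the chronic phase. Of all 9, 0 were at 0 in remission and 2, Ly6g and Retnlg, in the chronic phase. Oligodendrocyte genes summed to 71.5 to 706 CPM in remission and 83.1 to 84.4 CPM in chronic libraries, and astrocyte genes to 183 to 226 CPM in acute, 94.0 to 191 in remission, 111 to 202 in chronic and 58.2 to 74.3 CPM in control libraries. Of 5 astrocyte genes tested, 3 were called higher than in control mice in the acute phase, 2 in remission and 2 in the chronic phase. Of all genes 23.7, 6.06 and 9.57% were, in the same order. Endothelial genes summed to 17.4 to 21.8 CPM in acute, 14.3 to 23.1 in remission, 23.0 to 60.0 in chronic and 9.71 to 11 CPM in control libraries, with Cldn5 at 0 in all of them. Only 3 endothelial and pericyte genes were tested, and 1 was called higher than in control mice in each phase. Called lower were 1 in the acute phase, 0 in remission and 1 in the chronic phase. All genes had 23.7, 6.06 and 9.57% higher and 20, 3.25 and 5.17% lower, in the same order of phases. The part of astrocyte and endothelial genes in the levels of the crEAE groups was not tested. Erythroid genes summed to 19.3 to 70.9 CPM in acute, 4.25 to 34.3 in remission, 2.34 to 4.77 in chronic and 1.08 to 3.13 CPM in control libraries, with Hba-a2 at 0 in all of them. Of 3 erythroid genes tested, 3 were called higher than in control mice in the acute phase, 1 in remission and 0 in the chronic phase, beside the same shares of all genes. Their part was not tested. Neuronal genes ranged from 0.765 to 19.0 CPM over all libraries.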

How the data were processed

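The authors deposited raw counts of reads per gene for each of 12 libraries, which equalled the columns of their merged table. Per the submitters' processing notes, HISAT2, SAMtools 1.3.1, Picard 2.6.4 and HTSeq 0.6.1 were used with GRCm38. The HTSeq settings, the treatment of reads with several matches and the annotation release are not given in the sources used here. Per the labels' protocols, random hexamers, a Nextera XT kit, which keeps no strand, and 75-base single reads on one flow cell were used. Symbols, coordinates and sequences came from GENCODE M21 (GRCm38), which held 48144 of the 48526 gene IDs, and the other 382 held 0.0208% of counts.

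Genes kept by filterByExpr (12545) were tested in R 4.3.3 with edgeR 4.0.16 (TMM, robust quasi-likelihood, 1 fit of 4 groups and 12 libraries). Alternatives were DESeq2 1.42.0, limma-voom (limma 3.58.1), other scalings and filters, a block and single libraries left out. In data simulated for acute against control, 50 genes were raised at each fold and no other gene was changed. With 11604 genes tested, the test called 14% of genes simulated with a 1.5-fold change, 64% with 2-fold, 94% with 4-fold and 100% with 8-fold. Among its 148 calls were 12 unchanged genes. The real comparison called 2977 genes higher and 2510 lower, so these rates need not hold for it.

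Members and lists were chosen with earlier results of these data known. Of each list up to 4 genes with the smallest p in acute against control could be named, with Tfam, Polrmt, Lrpprc and Pnpt1 always. Windows of 75 bases were compared exactly, on both strands, with annotated transcripts outside chromosome M. Totals of 3992885 to 5712376 counts per library, of which 1498069 to 2597077 lay outside the 6 largest features, set the precision.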

Additional observations from a re-analysis of the deposited data

How the results depend on the processing

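All 15 tested members stayed called higher in acute against control mice under every alternative run. Library totals alone called 3241 genes in chronic against control, and the replicate block by title number called 2402 in chronic against acute, where 3610 were called without it. The title number has no stated meaning and the block left the members called at 15, 14 and 14 in acute, remission and chronic against control, 9 in remission and 5 in chronic against acute, and 0 in chronic against remission. In chronic against remission DESeq2 called 385 genes, limma-voom 65, a fit without a filter 828 and a fit of those 2 groups alone 19, against 151. Limma-voom called 10 members in chronic against acute, and without a filter 1 member, mt-Rnr2, was called in chronic against remission. The cause was not tested. The difference in mitochondrial share from control was 3.42 percentage points for acute, 1.19 for remission and 1.81 for chronic mice. Outside the 6 largest features it was 10.4, 3.34 and 5.18 points, of the filtered genes outside them 10.6, 3.40 and 5.22, and for messengers alone 0.196, 0.0848 and 0.102. With 1 library left out, genes called ranged from 4621 to 5639 in acute, 752 to 1312 in remission and 1225 to 1911 in chronic against control, and from 3665 to 4812 in remission against acute, 2580 to 3749 in chronic against acute and 18 to 282 in chronic against remission. Members called ranged from 6 to 15 in remission and 10 to 15 in chronic against control, 6 to 11 in remission against acute and 2 to 9 in chronic against acute. A fit of the 2 groups compared alone called 9 members in remission and 10 in chronic against control, and a fit without a filter 11 and 13, against 13 and 15. The share differences ranged from 3.29 to 3.57, 0.915 to 1.57 and 1.57 to 2.24 points, and that of mt-Co1 in the messenger pool, acute minus control, from -7.72 to -3.87. No member changed direction in any comparison with control or with acute mice. In chronic against remission, where none was called, the sign of small log2 differences turned: mt-Nd3 was -0.0431 with library totals alone, -0.0487 by limma-voom and -0.0245 with the replicate block, mt-Nd4 -0.0044 with totals alone, and mt-Nd6 -0.0426 with the block. Over all 22 settings, including those with 1 library left out, the log2 differences ran from -0.29 to 0.16 for mt-Atp8, -0.19 to 0.15 for mt-Cytb, -0.28 to 0.36 for mt-Nd3, -0.12 to 0.31 for mt-Nd4 and -0.13 to 0.37 for mt-Nd6. Depth limits the transfer RNAs, with 7 to 34 counts per library, and mt-Nd3 and mt-Atp8, with 6 to 10 and 10 to 16 in control libraries.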
